A study of Homo sapiens with 7 samples.

Results

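The HOX genes were described in NGP, a human neuroblastoma cell line, and in 3 ARID1A-mutant derivatives of it. Members were the entries named HOX, a cluster letter from A to D and a number, without antisense or read-through transcripts, and 39 of the 28517 entries matched. HOXA has 11 of them (on chromosome 7), HOXB 10 (chromosome 17), HOXC 9 (chromosome 12) and HOXD 9 (chromosome 2). RNA was sequenced in 7 libraries: 2 from control NGP cells, 2 from each of the ARID1A-/- lines called line 1 and line 2, and 1 from an ARID1A+/- line. All were grown in RPMI medium with 10% serum and 0.5 ug/ml puromycin, which the control cells received too. How the mutations were made, and whether each line is a single clone, is not given in the sources used here. The protein made from ARID1A belongs to BAF, the mammalian SWI/SNF complex that moves nucleosomes.

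HOX genes encode homeodomain transcription factors that give cells of the embryo their position along the body axis. Within a cluster the gene order matches the order in which the genes are used: low paralog numbers act in anterior tissue and early, high numbers in posterior tissue and late. Trithorax proteins keep HOX genes on and Polycomb proteins keep them off, and the BAF complex counts among the trithorax group, since its fly subunits were found through HOX phenotypes. In neural crest, the source of neuroblastoma, the HOX genes in use differ with the level of the trunk or head.

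For each replicated group, ribosomal RNA was removed with the SMARTer kit for 1 library and with the KAPA kit for the other. For the ARID1A+/- library the KAPA kit was used. Per the labels' protocols the libraries themselves followed NEBNext Ultra, so kit here means the kit for ribosomal RNA removal. Pairs of values below give SMARTer first and KAPA second. Levels are RPKM, reads per kilobase of transcript scaled to the library's total count, and can be compared between genes. Total counts ran from 24445301 to 43644361 a library. ARID1A itself was at 22.3 and 22.0 RPKM in the control, 16.7 and 17.2 in line 1, 14.2 and 13.8 in line 2, against 19.9 in ARID1A+/-, so RNA of the mutated gene was still counted in every library. Of the neuroblastoma markers, HAND2 (276 to 349 RPKM), GATA3 (70.8 to 154) and MYCN (606 to 3664) were high in all 7 libraries, while TH and DBH, enzymes of catecholamine synthesis, had at most 0.456 and 5.17 RPKM. Over the adrenergic marker list, 10 of 11 genes were tested in both lines against control, and 1 rose and 2 fell, beside 4.64% and 9.57% of all genes. Markers of Schwann cells (6) and endothelium (4) were all under the filter on low values, and of 4 immune markers 2 were tested and 0 passed (edgeR).

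Fold changes come from edgeR (quasi-likelihood test), fitted to counts of the 6 control and ARID1A-/- libraries, with the kit as a term in the model. They are log2 values ± standard error, with p-values adjusted by Benjamini-Hochberg over 14711 genes and a threshold of 0.05. Calls said below to end without a library no longer passed when the model was fitted without it. Such a fit has fewer libraries to estimate the spread from, whichever is left out. A call can therefore end where the change is as large or larger, and need not depend on that library's values. The model tests genes with a mean of at least 0.5 RPKM over the 6 libraries, which 18 of the 39 members reached. A gene that passes only through the group where it is high had to differ between groups. Counts over these 18 and over the gene lists below are therefore descriptions. Nothing in the labels gives separate cultures for the SMARTer and KAPA library of a line, so p-values here speak only of the spread between libraries, possibly a technical one. A change in bulk RNA cannot tell fewer cells that express a gene from less RNA per cell.

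Within HOXA, the genes that fell in both lines, HOXA9, HOXA10 and HOXA11, lie beyond the border between HOXA7 and HOXA9. The RefSeq promoter sequences on either side of that border are shown, chosen after the values were seen. Each is the 250 bases before the gene's start in GRCh38.p14, minus strand, read 5′ to 3′ toward the gene. Capitals mark the TATA box, TATAAA, searched on both strands. They also mark the CCAAT box, likewise on both strands, which reads ATTGG on the opposite one. HOXA7 lies at chr7:27156676-27156925, HOXA9 at chr7:27165538-27165787, HOXA10 at chr7:27179862-27180111 (the first of 2 entries) and HOXA11 at chr7:27185233-27185482.
HOXA7: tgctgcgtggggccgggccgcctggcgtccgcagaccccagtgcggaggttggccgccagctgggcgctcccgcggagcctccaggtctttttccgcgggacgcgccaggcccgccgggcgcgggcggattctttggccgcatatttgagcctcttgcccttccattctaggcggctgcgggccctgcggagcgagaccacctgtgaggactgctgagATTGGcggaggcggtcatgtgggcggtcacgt
HOXA9: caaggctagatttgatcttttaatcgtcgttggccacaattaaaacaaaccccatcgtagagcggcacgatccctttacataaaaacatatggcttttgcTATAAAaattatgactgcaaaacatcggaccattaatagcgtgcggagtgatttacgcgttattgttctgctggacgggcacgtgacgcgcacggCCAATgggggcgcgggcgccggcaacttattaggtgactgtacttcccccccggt
HOXA10: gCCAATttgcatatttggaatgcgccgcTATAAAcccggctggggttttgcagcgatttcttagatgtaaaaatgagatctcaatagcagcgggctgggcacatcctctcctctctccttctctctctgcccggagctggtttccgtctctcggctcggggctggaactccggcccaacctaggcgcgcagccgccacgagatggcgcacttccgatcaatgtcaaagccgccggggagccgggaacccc
HOXA11: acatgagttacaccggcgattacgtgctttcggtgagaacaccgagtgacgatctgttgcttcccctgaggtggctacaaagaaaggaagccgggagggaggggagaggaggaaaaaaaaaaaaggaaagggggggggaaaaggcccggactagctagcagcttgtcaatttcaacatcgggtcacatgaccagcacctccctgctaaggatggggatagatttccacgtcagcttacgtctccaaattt

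The HOXA9 and HOXA10 windows each hold 1 TATAAA and 1 CCAAT, the HOXA7 window holds 1 CCAAT, and the HOXA11 window holds neither. GC content is 70.8% for HOXA7, 48.8% for HOXA9, 58.8% for HOXA10 and 51.6% for HOXA11, and the windows hold 28, 20, 19 and 11 CpG dinucleotides in that order. Over all 35116 RefSeq windows of the same length, 10.72% hold TATAAA and 32.01% hold CCAAT, with a median GC content of 58% and a median of 11 CpG. The table has 27 windows for 20 of the 39 HOX genes, and 5 of these hold TATAAA and 18 hold CCAAT, with a median GC content of 58.8% and a median of 19 CpG. The sequence TGATTNAT, which HOX proteins bind together with PBX partners, is in 2 of the 27 and in 2.48% of all. A match is a match of letters and shows no bound factor.

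HOXA, HOXC and HOXD were expressed, and in HOXB only HOXB13 had any counts. Summed over each cluster, control cells had 15.8 and 14.6 RPKM of HOXA, 19.5 and 28.1 of HOXC, 41.1 and 30.9 of HOXD and 0 of HOXB in both libraries. HOXD was the highest of the clusters in both control libraries, both line 1 libraries and the ARID1A+/- library. In line 2 HOXC exceeded HOXD, with 34.2 and 25.5 RPKM against 33.1 and 21.9. Line 1 had 66.4 and 66.8 RPKM of HOXD, above every other library, the next being the SMARTer control. HOXA was lowest in line 2, with 6.74 and 6.99 RPKM, and highest in ARID1A+/-, with 30.5 RPKM.

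In control cells the expressed members formed a middle-to-posterior block in HOXA (HOXA7, HOXA9, HOXA10, HOXA11 and HOXA13), an anterior-to-middle block in HOXC (HOXC4 to HOXC9) and, in HOXD, HOXD3 to HOXD13 without HOXD12. The leading gene of HOXC was HOXC4 in all 7 libraries, with 27.3% to 52.9% of the cluster's RPKM. The leading gene of HOXA was HOXA7 in the SMARTer control and in all 4 ARID1A-/- libraries, and HOXA11 in the KAPA control and in ARID1A+/-. HOXD was led by HOXD9, HOXD10 or HOXD13, depending on the library.

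**Figure D1:**
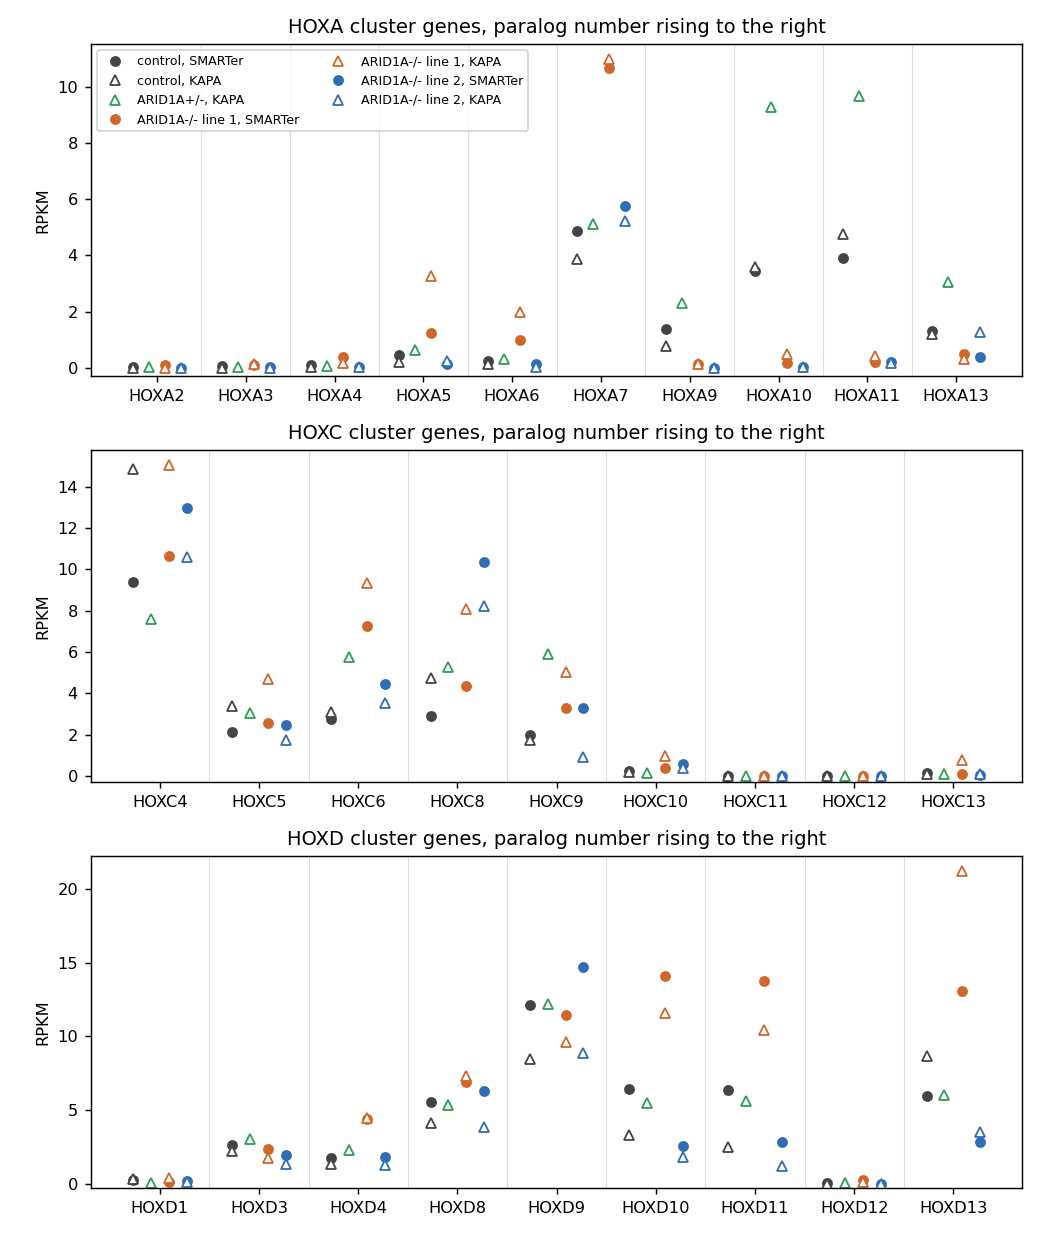
RPKM of HOXA2 to HOXA13 and of the HOXC and HOXD genes, by paralog number (x axis), in each of the 7 libraries; filled circles are SMARTer libraries, open triangles KAPA libraries, and colours are the groups. HOXA9, HOXA10 and HOXA11 are near 0 in both ARID1A-/- lines, and HOXD10, HOXD11 and HOXD13 are high in line 1 and low in line 2.

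Averaged over both ARID1A-/- lines, HOXA10 and HOXA11 fell and HOXA7, HOXC6 and HOXC8 rose. These are 5 of the 18 tested members, beside 14.2% of all genes tested in either direction (4.64% higher and 9.57% lower). The median change of the tested members was 0.18, and that of all genes 0.02. In line 1 alone, 8 members rose (4.75% of all genes did) and 2 fell (8.27%), with a median of 0.95. In line 2 alone, 1 rose (5.47% of all genes) and 5 fell (8.52%), with a median of -0.49. Since both lines are set against the same control libraries, their values are given side by side below and not correlated.

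**Figure D2:**
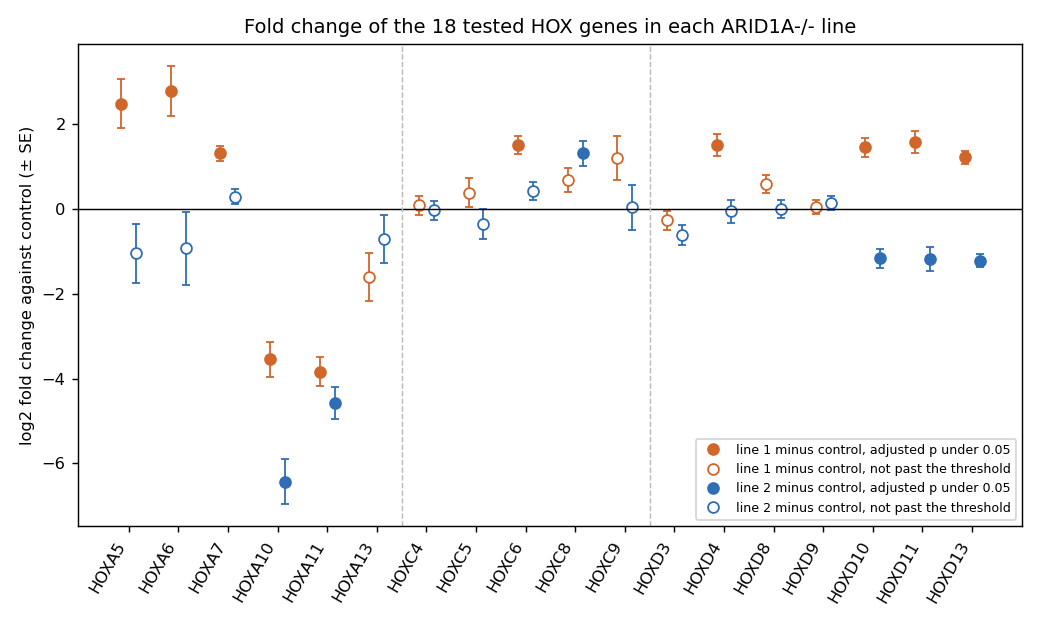
Log2 fold change (± SE) of the 18 tested HOX genes against control in ARID1A-/- line 1 and line 2, ordered by cluster and paralog number; filled points passed an adjusted p of 0.05 (edgeR) and dashed lines separate HOXA, HOXC and HOXD. HOXA10 and HOXA11 are below 0 in both lines, and HOXD10, HOXD11 and HOXD13 are above 0 in line 1 and below it in line 2.

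HOXA10 and HOXA11 were the members that fell in both lines, and HOXA9, too low for the test, moved with them. HOXA10, a posterior gene known from uterine development and blood stem cells, was at 3.47 and 3.58 RPKM in the control, 0.167 and 0.482 in line 1, 0.0462 and 0.0326 in line 2, against 9.29 in ARID1A+/-. All 4 ARID1A-/- libraries lay below both controls, and line 2 lay below line 1. The fitted change of HOXA10 was -3.55 ± 0.41 in line 1 (adjusted p = 0.0037, edgeR) and -6.44 ± 0.53 in line 2 (adjusted p = 9.77e-04, edgeR). In summed counts, HOXA10 was 11.6-fold lower in line 1 (95% exact binomial interval 9.08 to 15) and 89.6-fold lower in line 2 (46.9 to 196.6), on 71, 9 and 761 counts in line 1, line 2 and control. Binomial intervals here and below cover counting error only.

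HOXA11, which patterns the forearm and the uterus, was at 3.91 and 4.77 RPKM in the control, 0.200 and 0.425 in line 1, 0.203 and 0.156 in line 2, against 9.66 in ARID1A+/-. Here too the ARID1A-/- libraries all lay below the controls, and the lines lay close together. HOXA11 changed by -3.84 ± 0.35 in line 1 (adjusted p = 0.0015, edgeR) and -4.57 ± 0.37 in line 2 (adjusted p = 9.54e-04, edgeR), or 14.2-fold and 23.8-fold lower in summed counts. The difference between the lines was 0.74 ± 0.40 for HOXA11 and did not pass (adjusted p = 0.288, edgeR). For HOXA10 it was 2.89 ± 0.58 (adjusted p = 0.023, edgeR), a call that ended without the line 2 SMARTer library (3.50) or the line 2 KAPA library (2.44), and under limma on log2(RPKM + 1) (0.34) and log2(RPKM + 0.1) (1.501), where both lines lie near 0. The falls of HOXA10 and HOXA11 against control, in each line and in both, passed in every alternative run, including the omission of each library in turn. Both genes reached the filter's mean only through the control, and with no filter they fell in line 1 (adjusted p = 2.49e-04 and 7.27e-05, edgeR) and in line 2 (adjusted p = 2.43e-05 and 3.16e-05, edgeR). Under limma on log2(RPKM + 1) their falls were smaller, at -1.95 for HOXA10 and -2.099 for HOXA11 over both lines.

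HOXA9, a gene of posterior identity and of blood cell progenitors, had 125 and 39 counts in the control (1.39 and 0.776 RPKM), 11 and 9 in line 1 (0.129 and 0.137 RPKM), 0 and 0 in line 2, against 157 in ARID1A+/- (2.31 RPKM). It was 8.87-fold lower in line 1 than in the control (5.56 to 14.9) and at least 57.9-fold lower in line 2, where the bound sets 3 counts over the group's libraries. Its mean over the 6 libraries, 0.406 RPKM, was under the filter. With no filter on low values HOXA9 fell in both lines (adjusted p = 0.0042 in line 1 and 2.60e-04 in line 2, edgeR). HOXA9, HOXA10 and HOXA11 together made up 55.4% and 62.7% of HOXA RPKM in the control, 3.41% and 5.83% in line 1, 3.70% and 2.70% in line 2, against 69.8% in ARID1A+/-.

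HOXA13, the last gene of the cluster, which patterns the hand, foot and hindgut, was at 1.29 and 1.19 RPKM in the control, 0.490 and 0.300 in line 1, 0.391 and 1.28 in line 2, against 3.05 in ARID1A+/-. Line 1 lay below the control in both kits, while the line 2 libraries fell on either side of the KAPA control. The change of HOXA13 was -1.16 ± 0.47 over both lines (adjusted p = 0.153, edgeR) and -1.61 ± 0.57 in line 1 (adjusted p = 0.116, edgeR), and neither passed.

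The reads that fell include transcripts overlapping these genes. HOXA10-HOXA9, the read-through transcript, shares exons with HOXA9 and HOXA10, and HOXA11-AS overlaps HOXA11 on the other strand. Whether reads were counted by strand is not given in the sources used here, so reads of HOXA11 and its antisense RNA cannot be told apart. HOXA11-AS was at 2.26 and 1.03 RPKM in the control, 0.0156 and 0.142 in line 1, 0.0634 and 0.0894 in line 2, against 10.6 in ARID1A+/-. It was 25.95-fold lower in line 1 (12.9 to 61.0) and 25.4-fold lower in line 2 (12.6 to 59.7), on 8 counts in each. Its calls in both lines and in each line ended without the control SMARTer library (-3.14 in both, -3.21 in line 1 and -3.07 in line 2), and that in line 2 also without the line 2 SMARTer library (-3.94). HOXA-AS4 was at 5.21 and 4.16 RPKM in the control, 0.229 and 0.703 in line 1, 0.0635 and 0.0298 in line 2, against 12.9 in ARID1A+/-. HOXA-AS4 fell by 4.97 on the log2 scale over both lines (SE 0.45, adjusted p = 0.0011, edgeR), and its call in line 1 ended without the control SMARTer library (-2.76). HOXA10-HOXA9 had 149 and 61 counts in the control, 10 and 11 in line 1, 0 in both line 2 libraries and 192 in ARID1A+/-, which is 10.8-fold lower in line 1 and at least 74.1-fold lower in line 2. Like HOXA11-AS and HOXA-AS4, it reached the filter's mean only through the control, so the filter favoured a difference. Its fall in line 1 (-3.33 ± 0.41, adjusted p = 0.0073, edgeR) did not pass without the control SMARTer library (-2.87).

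On the other side of the border, HOXA7, HOXA6 and HOXA5 were higher in line 1. HOXA7, a trunk gene, was at 4.87 and 3.88 RPKM in the control, 10.7 and 10.98 in line 1, 5.76 and 5.22 in line 2, against 5.12 in ARID1A+/-. Both line 1 libraries lay above every other library. HOXA7 rose by 1.32 ± 0.18 in line 1 (adjusted p = 0.0060, edgeR) and changed by 0.29 ± 0.18 in line 2 (adjusted p = 0.316, edgeR). Line 1 exceeded line 2 by 1.02 ± 0.17 (adjusted p = 0.014, edgeR). Its rise over both lines, 0.81 ± 0.16 (adjusted p = 0.020, edgeR), ended without the control SMARTer library (0.93), the control KAPA library (0.66) or the line 2 KAPA library (0.79). Its rise in line 1 ended without either control library (1.44 and 1.18), and the difference between the lines ended without either line 2 library (1.01 and 1.06).

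HOXA5, which acts in lung and trunk development, was at 0.470 and 0.198 RPKM in the control, 1.24 and 3.28 in line 1, 0.148 and 0.230 in line 2, against 0.621 in ARID1A+/-. The line 1 libraries were the highest, and they differed from each other more than any other pair. HOXA5 rose by 2.49 ± 0.58 in line 1 (adjusted p = 0.037, edgeR), a call that ended without the control KAPA library (1.52) or the line 1 KAPA library (1.69) and under limma on log2(RPKM + 0.1) (2.37). Without the control SMARTer library it was 3.91 and passed. HOXA6, its neighbour, was at 0.229 and 0.153 RPKM in the control, 0.994 and 2.00 in line 1, 0.153 and 0.0432 in line 2, against 0.302 in ARID1A+/-. HOXA6 rose by 2.80 ± 0.59 in line 1 (adjusted p = 0.027, edgeR), which ended without the control SMARTer (3.45), the control KAPA (2.34) or the line 1 KAPA library (2.01) and under DESeq2's Wald test (2.996). Both genes passed the filter only through line 1, with 42 and 11 counts in the control, so the filter favoured a difference. With no filter the rises in line 1 passed as well (adjusted p = 0.012 for HOXA5 and 0.017 for HOXA6, edgeR). Under limma on log2(RPKM + 1), which shrinks changes at low levels, they were 1.22 and 1.04. Line 1 exceeded line 2 by 3.54 ± 0.62 for HOXA5 and by 3.72 ± 0.65 for HOXA6 (adjusted p = 0.015 for each, edgeR). The HOXA5 difference did not pass without either line 2 library (3.45 and 3.67), nor the HOXA6 difference without the line 2 KAPA library (2.96). HOXA-AS3, a non-coding RNA of the same region, was at 1.83 and 1.51 RPKM in the control, 4.20 and 4.21 in line 1 and 2.07 and 2.101 in line 2. It rose by 1.34 ± 0.19 in line 1 (adjusted p = 0.0073, edgeR), which ended without either control library (1.47 and 1.19).

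HOXA2, HOXA3 and HOXA4, genes of hindbrain and neck, were low in every library, each with at most 27 counts. HOXA2 had 3 and 0 counts in the control, 7 and 0 in line 1, 0 in both line 2 libraries and 1 in ARID1A+/-. HOXA4 had 37 counts in line 1 against 9 in the control (3.80-fold, 1.80 to 8.96) and 2 in line 2, and HOXA3 had 31 counts in line 1 against 8 in the control (3.58-fold, 1.61 to 9.02) and 4 in line 2.

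HOXB was silent except for a few counts of HOXB13. HOXB1 to HOXB9 had 0 counts in all 7 libraries, as did HOXC11 and HOXC12. Over the 7 libraries together, a count of 0 allows at most 0.00900 RPKM for any of these HOXB genes and 0.0145 for HOXC11 and HOXC12, taking 3 counts as the limit. HOXB13, the posterior gene that lies apart from the rest of the cluster, had 0 counts in all control and line 2 libraries, 10 and 15 counts in line 1 and 1 count in ARID1A+/-. That is at least 7.71-fold higher in line 1 than in the control, at a level of 0.0796 and 0.155 RPKM. With no filter HOXB13 was called higher in line 1 than in the control and than in line 2 (adjusted p = 0.043 for each, edgeR), on these few counts.

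In HOXC the expressed genes lay at the anterior and middle end, and 2 of them rose over both lines. HOXC4, the leading gene, was at 9.37 and 14.9 RPKM in the control, 10.6 and 15.03 in line 1, 13.0 and 10.6 in line 2, against 7.59 in ARID1A+/-. The groups overlapped, and the change of HOXC4 over both lines was 0.03 ± 0.20 (adjusted p = 0.933, edgeR). HOXC5 was at 2.11 and 3.39 RPKM in the control, 2.54 and 4.67 in line 1, 2.47 and 1.72 in line 2, against 3.04 in ARID1A+/-, and overlapped likewise. HOXC4, HOXC5 and HOXC6 share an upstream first exon, so reads on it could be counted to any of them.

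HOXC6, a gene of the thoracic trunk, was at 2.76 and 3.07 RPKM in the control, 7.27 and 9.32 in line 1, 4.45 and 3.53 in line 2, against 5.76 in ARID1A+/-. Every mutant library lay above both controls. HOXC6 rose by 1.51 ± 0.21 in line 1 (adjusted p = 0.0071, edgeR), changed by 0.42 ± 0.21 in line 2 (adjusted p = 0.238, edgeR) and rose by 0.97 ± 0.19 over both lines (adjusted p = 0.021, edgeR). Its rises over both lines and in line 1 ended without the control SMARTer library (0.88 and 1.43) or the control KAPA library (1.02 and 1.57). Line 1 exceeded line 2 by 1.09 ± 0.21 for HOXC6 (adjusted p = 0.020, edgeR), which ended without the control SMARTer (1.10) or the line 2 KAPA library (0.84).

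HOXC8, known from brachial motor neurons and the rib cage, had the reverse order of the lines. It was at 2.90 and 4.76 RPKM in the control, 4.33 and 8.09 in line 1, 10.4 and 8.24 in line 2, against 5.27 in ARID1A+/-. Line 2 lay above every control and line 1 library, while the SMARTer library of line 1 lay below the KAPA control. HOXC8 rose by 1.31 ± 0.29 in line 2 (adjusted p = 0.032, edgeR) and by 1.00 ± 0.26 over both lines (adjusted p = 0.049, edgeR), and changed by 0.69 ± 0.29 in line 1 (adjusted p = 0.172, edgeR). The rise in line 2 ended without the control SMARTer (1.07), control KAPA (1.51) or line 2 SMARTer library (0.73), the last a shift of over 1.5 times. The rise over both lines ended without the same libraries (0.77, 1.21 and 0.70) and under DESeq2 size factors (1.00), no TMM factors (1.02), a minimum mean of 1 RPKM (0.99) and limma on log2(RPKM + 1) and log2(RPKM + 0.1) (0.83 and 0.97). The difference between the lines, -0.63 ± 0.29, did not pass (adjusted p = 0.214, edgeR).

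HOXC9, a repressor of forelimb-level fates in the thoracic cord, was at 1.99 and 1.75 RPKM in the control, 3.29 and 5.01 in line 1, 3.28 and 0.898 in line 2, against 5.89 in ARID1A+/-. The line 2 libraries fell on either side of the control. HOXC9 changed by 1.20 ± 0.52 in line 1 (adjusted p = 0.181, edgeR) and did not pass in any contrast. HOXC10 stayed under the filter, with 19 and 8 counts in the control, 32 and 60 in line 1, 46 and 23 in line 2, against 9 in ARID1A+/-. HOXC13, with 60 of its 107 counts in the line 1 KAPA library, had 5 to 13 in each of the others.

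In HOXD the posterior genes moved in opposite directions in the 2 lines. HOXD10, which marks lumbar motor neurons, was at 6.44 and 3.29 RPKM in the control, 14.1 and 11.6 in line 1, 2.55 and 1.82 in line 2, against 5.50 in ARID1A+/-. All line 1 libraries lay above the control and all line 2 libraries below it. HOXD10 rose by 1.46 ± 0.22 in line 1 (adjusted p = 0.0087, edgeR) and fell by 1.16 in line 2 (SE 0.23, adjusted p = 0.021, edgeR). HOXD11, which patterns the forearm with HOXA11, was at 6.37 and 2.48 RPKM in the control, 13.8 and 10.4 in line 1, 2.80 and 1.17 in line 2, against 5.58 in ARID1A+/-. Its line 2 SMARTer library lay above the KAPA control, but within each kit line 2 was lowest and line 1 highest. HOXD11 rose by 1.59 ± 0.27 in line 1 (adjusted p = 0.013, edgeR) and fell by 1.18 in line 2 (SE 0.28, adjusted p = 0.038, edgeR).

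HOXD13, the gene of digit identity at the end of the cluster, was at 5.98 and 8.65 RPKM in the control, 13.1 and 21.2 in line 1, 2.85 and 3.53 in line 2, against 6.02 in ARID1A+/-. The 3 groups did not overlap. HOXD13 rose by 1.22 ± 0.15 in line 1 and changed by -1.22 ± 0.16 in line 2 (adjusted p = 0.0050 for each, edgeR), and over both lines it changed by 0.00 ± 0.14 (adjusted p = 0.994, edgeR). Line 1 exceeded line 2 by 2.62 ± 0.23 for HOXD10 (adjusted p = 0.0017, edgeR), 2.77 ± 0.28 for HOXD11 (adjusted p = 0.0026, edgeR) and 2.44 ± 0.16 for HOXD13 (adjusted p = 7.11e-04, edgeR). These 3 differences passed without any 1 of the 6 libraries. HOXD10, HOXD11 and HOXD13 together made up 45.7% and 46.6% of HOXD RPKM in the control, 61.7% and 64.7% in line 1, 24.7% and 29.7% in line 2, against 42.8% in ARID1A+/-.

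The HOXD10 rise in line 1 ended without the control KAPA library (1.17), and its fall in line 2 ended without the control SMARTer (-0.85), line 2 SMARTer (-1.07) or line 2 KAPA library (-1.26). The HOXD11 rise ended without either control library (1.87 and 1.31), and its fall ended without the control SMARTer (-0.87), control KAPA (-1.43), line 2 SMARTer (-1.39) or line 2 KAPA library (-1.05). The HOXD13 rise ended without either control library (1.19 and 1.22) and its fall without the control SMARTer library (-1.25). Of the 8 rises in line 1, HOXA5 and HOXD10 passed without the control SMARTer library and 0 passed without the control KAPA library.

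Neither of the anterior genes HOXD3 and HOXD4 passed in line 2, but HOXD4 rose in line 1 about as much as the posterior genes. HOXD4, a hindbrain and neck gene, was at 1.77 and 1.36 RPKM in the control, 4.38 and 4.43 in line 1, 1.82 and 1.28 in line 2, against 2.31 in ARID1A+/-. Line 1 stood apart, and the control and line 2 overlapped. HOXD4 rose by 1.51 ± 0.26 in line 1 (adjusted p = 0.015, edgeR), which ended without either control library (1.57 and 1.43). Line 1 exceeded line 2 by 1.56 ± 0.26 (adjusted p = 0.013, edgeR), which ended without either line 2 library (1.72 and 1.44). HOXD3 was at 2.61 and 2.24 RPKM in the control, 2.32 and 1.72 in line 1, 1.94 and 1.34 in line 2, against 3.05 in ARID1A+/-, and its change over both lines was -0.44 ± 0.20 (adjusted p = 0.192, edgeR).

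HOXD8 and HOXD9, in the middle of the cluster, passed in no contrast between lines. HOXD8 was at 5.55 and 4.09 RPKM in the control, 6.94 and 7.33 in line 1, 6.26 and 3.82 in line 2, against 5.31 in ARID1A+/-. Its change in line 1 was 0.60 ± 0.21 (adjusted p = 0.116, edgeR). HOXD9 was at 12.2 and 8.49 RPKM in the control, 11.4 and 9.62 in line 1, 14.7 and 8.87 in line 2, against 12.2 in ARID1A+/-, and its change over both lines was 0.10 ± 0.14 (adjusted p = 0.698, edgeR). HOXD9 lies next to HOXD10, which was 5.97-fold higher in line 1 than in line 2 in summed counts (5.265 to 6.80). HOXD1 (1 to 23 counts a library) and HOXD12 (0 to 10) stayed under the filter.

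Compared directly, 9 of the 18 tested members were higher in line 1 than in line 2 and 0 were lower, where 5.71% of all genes were higher and 7.1% lower. The 9 were HOXA5, HOXA6, HOXA7, HOXA10, HOXC6, HOXD4, HOXD10, HOXD11 and HOXD13, and the median difference of the tested members was 1.06 beside 0.00 for all genes. HOXA5 and HOXA6 entered this count only because line 1 is high, and HOXA10 only because the control is, so the count is a description only. The fibroblast markers, taken as a sum, were also higher in line 1 than in line 2. Their summed level was 100 and 101 RPKM in the control, 224 and 246 in line 1, 65.3 and 61.9 in line 2, against 111 in ARID1A+/-. Of 9 markers 7 were tested: 4 rose and 0 fell in line 1, beside 4.75% and 8.27% of all genes. In line 2, 2 rose and 2 fell, beside 5.47% and 8.52%. Compared directly, 3 were higher in line 1 than in line 2 and 0 lower, beside 5.71% and 7.1%. DCN, which rose in both lines, was at 0.301 and 0.0326 RPKM in the control. It reached the filter's mean only through the ARID1A-/- lines, so the filter favoured a difference. COL1A1 made up most of the sum, with 156 and 171 RPKM in line 1, whereas COL1A2 had at most 6 counts in any library and FAP had 0 in all. The part of the fibroblast markers in the HOX differences was not tested.

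In the ARID1A+/- library HOXA9, HOXA10 and HOXA11 were higher than in the control, while in the ARID1A-/- lines they were lower. HOXA13 was higher than in the control too, and had passed in neither ARID1A-/- line. With 1 library there is no replicate check and no test, so ratios to the KAPA control are given with exact 95% binomial intervals. HOXA9 stood at 3.10-fold the control (2.17 to 4.52), HOXA10 at 2.70-fold (2.36 to 3.09), HOXA11 at 2.11-fold (1.85 to 2.41) and HOXA13 at 2.67-fold (2.05 to 3.51). HOXC9 stood at 3.50-fold (2.67 to 4.64), HOXA5 at 3.27-fold (1.49 to 8.18), HOXD11 at 2.34-fold (1.85 to 2.98) and HOXA6, on 8 counts against 3, at 2.05-fold (0.492 to 12.0). Of the 18 tested members, 7 were at least 2-fold away from the control, beside 10.3% of all genes. All 7 were higher, beside 4.43% of all genes, and 0 were at least 2-fold lower, beside 5.88%. Against the mean of both control libraries the number at least 2-fold higher was 4. HOXD11, HOXA5 and HOXA6 then fell short of 2-fold. Their mean control levels were 4.42, 0.334 and 0.191 RPKM, against 5.58, 0.621 and 0.302 in ARID1A+/-.

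At the low end, HOXC4 was 1.88-fold lower in ARID1A+/- (1.694 to 2.097) and HOXD13 1.38-fold lower (1.21 to 1.57). HOXD1 had 1 count against 17 in the control. HOXA7 stood at 1.37-fold (1.15 to 1.65) and HOXC6 at 1.95-fold (1.63 to 2.35). HOXA11-AS, with 544 counts in ARID1A+/- against 39 in the KAPA control, and HOXA-AS4, with 495 against 118, were high beside their sense neighbours. EVX1, the homeobox gene beyond HOXA13, had 32 counts in ARID1A+/- against 1 to 7 in each other library.

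**Figure D3:**
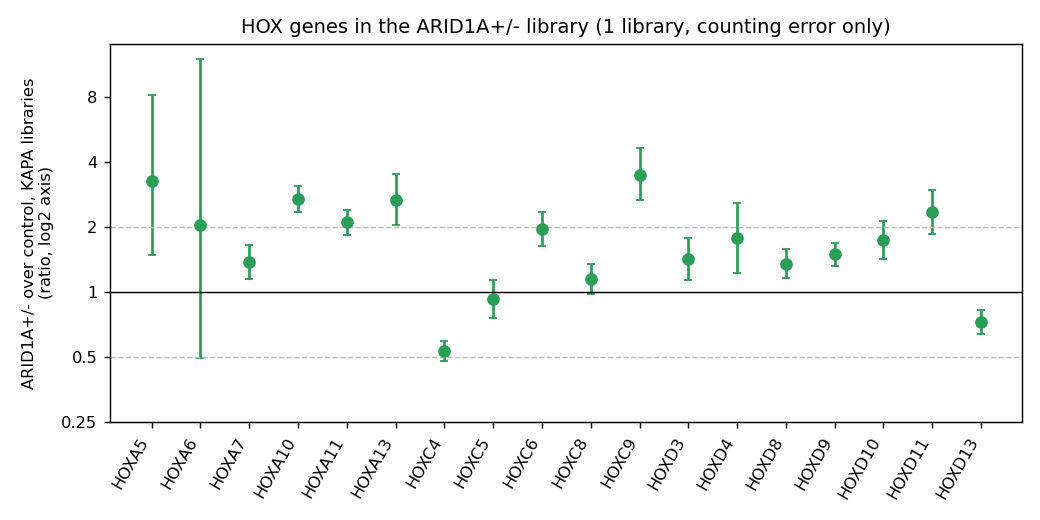
Ratio of the ARID1A+/- library to the KAPA control library for the 18 tested HOX genes (y axis, log2 scale), with exact 95% binomial intervals that cover counting error only; dashed lines mark 2-fold. HOXC9, HOXD11 and the tested HOXA genes other than HOXA7 lie above 2, and HOXC4 is lowest at 0.531.

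The kit differences that passed were in HOXD. In each replicated group the SMARTer library is replicate 1 and the KAPA library replicate 2. Kit and other differences between the replicates cannot be told apart. HOXD11 read higher in the SMARTer than in the KAPA library by 1.15 ± 0.22 (adjusted p = 0.028, edgeR), HOXD10 by 0.74 ± 0.18 (adjusted p = 0.044, edgeR) and HOXD9 by 0.67 ± 0.13 (adjusted p = 0.029, edgeR), each in 3 of 3 groups. These are 3 of the 18 tested members, beside 7.99% of all genes higher in SMARTer, and 0 were lower, beside 5.3%. HOXD13 lay the other way, at -0.35 ± 0.13 (adjusted p = 0.109, edgeR), and was called lower in SMARTer by limma on log2(RPKM + 1) (-0.45) and log2(RPKM + 0.1) (-0.51) and with no TMM factors (-0.52), a scaling that moved the median kit difference of all genes by -0.17. With no TMM factors HOXD11 alone was higher in SMARTer (0.97). The HOXD10 call also ended under limma on log2(RPKM + 1) (0.46) and log2(RPKM + 0.1) (0.56). The 3 kit calls ended without either control library or either line 2 library: HOXD11 was then 0.98, 0.95, 1.04 and 1.05, HOXD10 0.56, 0.54, 0.79 and 0.81, and HOXD9 0.68, 0.65, 0.56 and 0.58, in the order control SMARTer, control KAPA, line 2 SMARTer, line 2 KAPA. Within each kit taken alone, HOXD10, HOXD11 and HOXD13 were highest in line 1 and lowest in line 2.

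**Figure D4:**
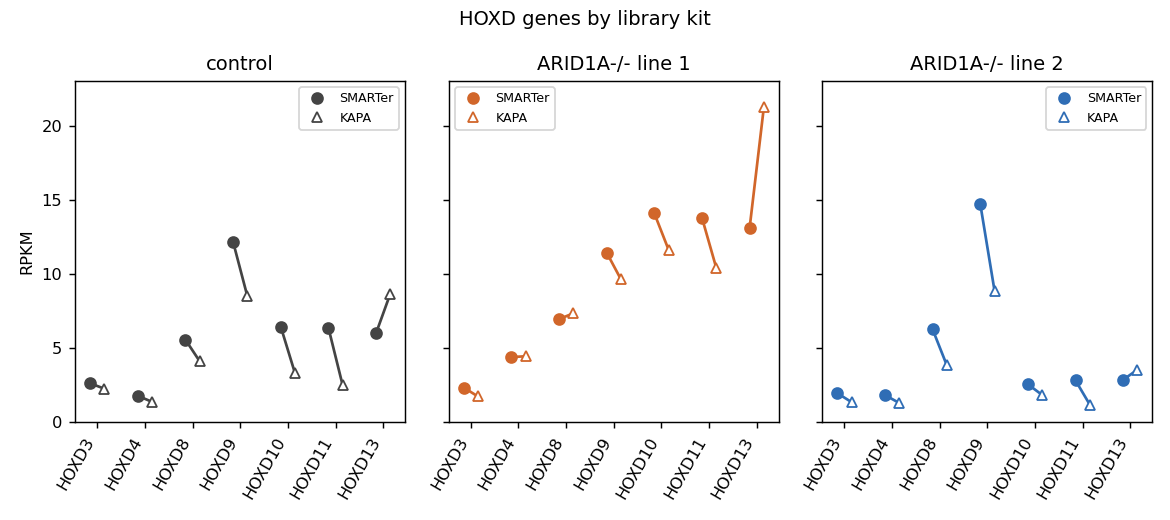
RPKM of 7 HOXD genes in the SMARTer (filled circle) and KAPA (open triangle) library of the control, line 1 and line 2, joined by a line. HOXD9, HOXD10 and HOXD11 drop from SMARTer to KAPA in all 3 groups, and HOXD13 goes up.

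PBX, MEIS and PKNOX proteins are TALE homeodomain cofactors that bind DNA beside HOX proteins. Of 9, 7 were tested: over both lines 2 rose and 2 fell, as also happened in line 1, while line 2 had 3 rises and 3 falls, beside 14.2%, 13% and 14% of all genes called in either direction, with medians of 0.22, 0.16 and 0.52. MEIS3 was at 13.6 and 10.8 RPKM in the control, 33.0 and 20.2 in line 1, 56.4 and 48.6 in line 2, against 10.0 in ARID1A+/-. It rose by 1.10 ± 0.16 in line 1 (adjusted p = 0.0079, edgeR) and 2.08 ± 0.16 in line 2 (adjusted p = 8.71e-04, edgeR), and the former ended without either control library (1.02 and 1.16). MEIS2, the highest of the list, was at 49.6 and 42.7 RPKM in the control, 67.9 and 66.9 in line 1, 98.2 and 97.7 in line 2, against 22.1 in ARID1A+/-. MEIS2 rose by 0.80 ± 0.11 over both lines (adjusted p = 0.0056, edgeR), which ended without either control library (0.89 and 0.70).

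PKNOX2 was at 1.51 and 2.02 RPKM in the control, 0.156 and 0.274 in line 1, 0.312 and 0.466 in line 2, against 2.34 in ARID1A+/-. It fell by 2.65 on the log2 scale over both lines (SE 0.21, adjusted p = 7.64e-04, edgeR). PKNOX2 reached the filter's mean only through the control, so the filter favoured a difference. PBX3 was at 7.29 and 11.8 RPKM in the control, 4.46 and 6.21 in line 1, 3.98 and 5.57 in line 2, against 12.8 in ARID1A+/-. PBX3 fell by 0.91 over both lines (SE 0.13, adjusted p = 0.0057, edgeR), which ended without either control library (-1.04 and -0.81). MEIS1, at 9.27 and 11.1 RPKM in the control and 19.7 and 18.4 in line 2, rose by 0.87 ± 0.13 in line 2 (adjusted p = 0.0074, edgeR), which ended without the control SMARTer (0.70) or line 2 SMARTer library (0.76). Line 2 exceeded line 1 for MEIS1, MEIS2 and MEIS3. Of these differences, that of MEIS1 (-1.30 as line 1 minus line 2, SE 0.13, adjusted p = 0.0023, edgeR) passed in every alternative run. That of MEIS2 (-0.50) ended without any 1 of the 6 libraries (-0.57 to -0.40), and that of MEIS3 (-0.97) without the line 2 KAPA library (-0.78).

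**Figure D5:**
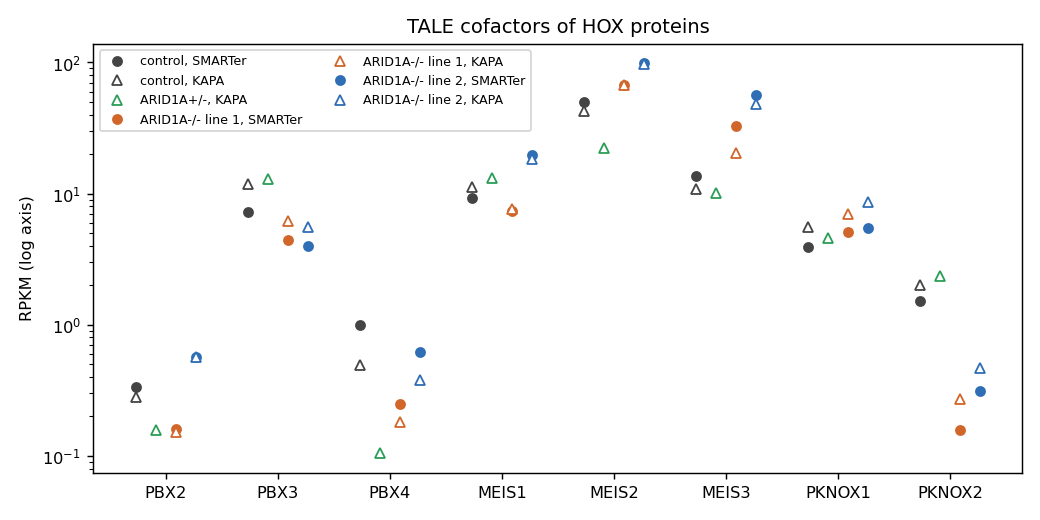
RPKM (log axis) of TALE cofactor genes in each of the 7 libraries; symbols are the kits and colours the groups. MEIS2 and MEIS3 rise from control to line 1 to line 2, PKNOX2 is low in both ARID1A-/- lines, and the ARID1A+/- library has the lowest MEIS2.

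Of 12 trithorax and MLL-type activators, which keep HOX genes on, 12 were tested and 0 passed over both lines (edgeR, with 3 at an unadjusted p under 0.05, and 1, KDM6A, by DESeq2's Wald test). DPY30 and WDR5, core subunits of the MLL complexes, were the highest, at 58.3 to 85.2 and 18.7 to 26.0 RPKM. In line 2, KDM6A, an enzyme that removes the histone mark laid by Polycomb, rose by 0.74 ± 0.17 (adjusted p = 0.036, edgeR) and ASH1L by 0.62 ± 0.16 (adjusted p = 0.049, edgeR), and RBBP5 fell by 0.51 (SE 0.11, adjusted p = 0.033, edgeR). Each of these ended without any of the control and line 2 libraries, at 0.55 to 0.91 for KDM6A, 0.37 to 0.87 for ASH1L and -0.56 to -0.49 for RBBP5. Of 17 Polycomb genes, 16 were tested and 0 passed over both lines (edgeR, with 3 at an unadjusted p under 0.05, and 0 by DESeq2's Wald test). Over all genes 14.2% were called in that contrast. PCGF2 (41.9 to 64.6 RPKM) and CBX2 (30.4 to 44.5 RPKM) were the highest.

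JARID2 and CBX7 were the Polycomb genes that passed against control in a single line. JARID2, which recruits the repressive complex, was at 10.8 and 14.03 RPKM in the control and 7.59 and 10.7 in line 1, and fell by 0.44 in line 1 (SE 0.11, adjusted p = 0.047, edgeR), which ended without any of the 6 libraries (-0.49 to -0.42). CBX7 was at 0.538 and 0.299 RPKM in the control and 1.43 and 0.699 in line 2, and rose by 1.28 ± 0.26 in line 2 (adjusted p = 0.025, edgeR), which ended without any of the control and line 2 libraries (1.17 to 1.36). CBX7 reached the filter's mean only through line 2, so the filter favoured a difference. Its call in line 2 ended in 7 of 13 alternatives, where the change was as low as 0.52. CDX and other ParaHox genes, some of which switch on HOX genes in the embryo, were nearly silent. None of the 6 passed the filter in these libraries, with GSX2 at 0.104 to 0.709 RPKM and CDX1 at 0 to 3 counts.

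Of 17 names of genes that flank the clusters, 14 were present and 10 were tested. Over both lines 1 rose and 0 fell, a share near the 14.2% of all genes called, with a median of 0.00. CALCOCO2, beyond the posterior end of HOXB, was at 6.67 and 6.83 RPKM in the control, 9.08 and 11.5 in line 1 and 9.64 and 9.97 in line 2. It rose by 0.55 ± 0.12 (adjusted p = 0.032, edgeR), which ended without either control or either line 2 library (0.62, 0.46, 0.53 and 0.57). HNRNPA1 (415 to 563 RPKM) and CBX5 (32.9 to 55.0 RPKM), beside HOXC, were the highest and did not pass. EVX2, the homeobox gene next to HOXD13, had 36 and 2 counts in the control, 7 and 4 in line 1, 1 and 1 in line 2, against 13 in ARID1A+/-. Of the 23 HOX-cluster non-coding RNA names 13 were present and 6 were tested, and over both lines 1 rose (HOXA-AS3) and 3 fell (HOXA-AS4, HOXA11-AS and HOXA10-HOXA9), beside 4.64% and 9.57% of all genes. The 3 that fell overlap or adjoin HOXA9, HOXA10 and HOXA11 and are not independent of them. Each reached the filter's mean only through the control. HOXD-AS2, the highest of that list, was at 5.73 and 6.86 RPKM in the control, 11.2 and 7.89 in line 1 and 7.59 and 7.80 in line 2, and did not pass. HOTAIR, of the HOXC cluster, had 1 count in each control library and 0 in the other 5.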

How the data were processed

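RNA sequencing of 7 NGP libraries was used. The submitters' processing notes name HISAT2 2.1.0 and the hg19 build. No counting program, annotation or strand setting was found in the labels or headers. Per the labels' protocols, ribosomal RNA was removed with the SMARTer or the KAPA kit and libraries followed NEBNext Ultra, while the molecule label names polyA RNA, so the RNA selection is uncertain. Per the file headers, the authors deposited whole-number counts, an entry length and RPKM values for 28517 entries. The deposited RPKM equals the count over length and total count to within 0.000501%, so both hold the same data.

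From these, edgeR 4.0.16 (R 4.3.3) fitted a quasi-likelihood model with 3 groups and the kit over 6 libraries, on entries with a mean of at least 0.5 RPKM, scaled by TMM with full totals. A standard error is the log2 fold change over the square root of its F statistic. The kit is a batch named in the labels and pairs the libraries: SMARTer minus KAPA differences correlated over 14711 genes with r = 0.51 for line 1 against control, r = 0.63 for line 2 against control and r = 0.45 for the lines. No library repeated its partner's counts (chi-square per gene 148 to 193). The script was tested on simulated data. Alternatives were DESeq2 1.42.0 (size factors, Wald test), limma 3.58.1, other filters, no kit term, each library left out and, added after seeing the data, totals without TMM factors. Where a left-out library leaves a group with 1, that library is assumed to vary like the other groups. Ratios of summed counts carry exact binomial intervals at 95%, and a group at 0 counts is set to 3.

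Members, gene lists and tests were chosen with earlier results of these data known. Named genes were HOX members with a mean of at least 1 RPKM in any group or a call in any contrast, and in the other lists the genes called in a line contrast and the 2 highest. HOXA3, HOXA4, HOXB13, HOXC10, HOXC13, HOXD1, EVX1, EVX2, HOTAIR and the markers were named after their values were seen. Some genes that the rules or lists select are not reported here. Promoter sequences are from the RefSeq table on GRCh38.p14, another build than that of the counts, and gene coordinates on hg19 were not used here.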

Additional observations from a re-analysis of the deposited data

Results flagged for a closer look

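The contrast with control differed between the ARID1A-/- lines for 9 of the 18 tested HOX genes, by the test of line 1 against line 2 in the same model (edgeR, adjusted p under 0.05). Over all genes 12.8% were called in this test. For each of the 9 HOX genes line 1 was the higher. The differences on the log2 scale were 3.54 for HOXA5, 3.72 for HOXA6, 1.02 for HOXA7, 2.89 for HOXA10, 1.09 for HOXC6, 1.56 for HOXD4, 2.62 for HOXD10, 2.77 for HOXD11 and 2.44 for HOXD13. For HOXD10, HOXD11 and HOXD13 the lines moved to opposite sides of the control. For HOXA10 both lines were below the control, line 2 further than line 1. The HOXA10 difference rests on 9 counts in line 2, and its call ended in 5 of 14 alternatives. HOXA5 and HOXA6 reached the filter only through line 1, and HOXA10 only through the control. For HOXA5, HOXA6, HOXA7, HOXC6 and HOXD4, line 1 passed the test against control and line 2 did not.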

How the results depend on the processing

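The falls of HOXA10 and HOXA11 passed in all 14 alternatives, over both lines and in each line, and the line 1 minus line 2 differences of HOXD10 and HOXD13 passed in all 14 too. No called HOX change reversed. HOXC4 over both lines, not called, ran from -0.26 to 0.31 with a library left out. The replicate block is the kit term: with no replicate block the number of HOX genes that rose was 0 over both lines (3 with it), 1 in line 1 (8), 0 in line 2 (1) and 4 in line 1 against line 2 (9), and 2 fell in line 2 (5). With a library left out, 0 to 3 rose and 2 to 3 fell over both lines, 0 to 10 rose and 2 to 3 fell in line 1, 0 to 1 rose and 2 to 5 fell in line 2, 3 to 11 were higher in line 1 than in line 2, and 0 to 4 were higher in SMARTer. With no TMM factors 1 HOX gene was higher and 1 lower in SMARTer (3 and 0 in the main model), and limma on log2(RPKM + 1) and on log2(RPKM + 0.1) each called 1 lower. Against both controls, 4 HOX genes were at least 2-fold higher in ARID1A+/- (7 against the KAPA control).

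Over the lists of cofactors, regulators, non-coding RNAs and flanking genes together, 4 rose and 5 fell over both lines, 4 and 6 in line 1, 6 and 7 in line 2, and 4 were higher and 4 lower in line 1 than in line 2. Tested were 7 TALE cofactors, 12 trithorax and MLL-type genes, 16 Polycomb genes, 6 non-coding RNAs and 10 flanking genes. Of all genes, 14.2%, 13%, 14% and 12.8% were called in these contrasts, in that order. PKNOX2, HOXA-AS4, HOXA11-AS and HOXA10-HOXA9, which fell, reached the filter only through the control. With no replicate block 1 rose over both lines, 1 in line 1 and 3 in line 2 with 4 falling, and 0 were higher and 1 lower in line 1 than in line 2. A mean of at least 1 RPKM left 2 falls over both lines, 3 in line 1 and 4 in line 2, since fewer genes were tested. With a library left out, 1 to 8 rose and 3 to 6 fell over both lines, 0 to 5 and 1 to 7 in line 1, 2 to 10 and 2 to 7 in line 2, and 0 to 6 were higher and 1 to 6 lower in line 1. Any fit with a library left out also has fewer libraries to estimate the spread from. Except for the filter, the cause of these shifts was not tested. At these depths a gene of few counts, such as HOXA6 or HOXB13, has a wide interval.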
